A study of Mus musculus with 12 samples.

Results

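The 56 genes described here act in G2 and M phase, when a cell that has copied its DNA prepares for mitosis and then divides. They were listed by symbol as mitotic kinases, kinesins, kinetochore and cytokinesis genes together with cyclins and chromatin factors. The list used no measured value, but earlier results of these data were known when the genes were chosen. Each matched 1 Ensembl identifier of the 46603 in the deposited count table, and all 56 passed the filter on low counts that left 13167 genes for testing. RNA sequencing had been performed on OT-I/Cas9 CD8 T cells, primary mouse splenic T cells that carry a transgenic T cell receptor for ovalbumin and express Cas9 constitutively. All cells had first been activated on antibodies to CD3 and CD28, transduced with a retroviral guide RNA, selected with puromycin and kept for days in IL-2, IL-7 and IL-15, so that resting means not restimulated. The 6 groups held 2 libraries each. Control-guide cells received water or AGN192403 (100 µM), Tmed10-guide cells (Tmed10 KO) received water, and each was left resting or was activated on plate-bound anti-CD3 (2.5 µg/mL), all for 24 h. AGN192403 is an imidazoline receptor ligand that is also known to bind TMED9, and Tmed10 encodes a p24 family protein that carries cargo out of the endoplasmic reticulum. The compound was given to control-guide cells only. The Tmed10 KO cells were a selected population and not a clone, and the labels give neither the age of the mice nor whether the replicates were separate cultures or mice, so the p-values may measure technical spread alone.

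Entry into mitosis is driven by cyclin B bound to the kinase CDK1, which the CDC25 phosphatases switch on. Polo-like, Aurora and checkpoint kinases then build the spindle, attach chromosomes through the kinetochore and hold anaphase back until every attachment is made, and kinesins and cytokinesis factors separate the daughter cells. The transcripts of these genes are made in waves, low in G1 and highest from late S phase to mitosis. Their level in a bulk culture therefore depends in part on how many of its cells are in those phases. Effector T cells are known for fast division, and antigen receptor signals and cytokines set how long they keep dividing.

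The promoters of late cell cycle genes often carry a cell cycle genes homology region (CHR), the binding site of the MuvB complexes that work with B-MYB and FOXM1, near CCAAT boxes, which bind NF-Y. RefSeq promoter windows on GRCm38.p6, from 250 bases before to 50 bases after the annotated start, were matched for 48 of the 56 genes. The others were Ccna2, Cdc25c, Aurkb, Cdca2, Tpx2, Dlgap5, Kif20a and Smc4. On either strand, the CHR letters TTTGAA were in the windows of 36 of the 48 genes (75.0%), against 20.2% of all 27025 genes with a window and 14.3% of the 9502 tested genes with one. The variant TTCGAA is a different word, so that no position counted for both forms, and it was in 5 windows (10.4%, against 1.80% of all and 2.53% of tested genes). CCAAT was in 39 (81.3%, against 41.1% and 43.1%), and one of the CHR forms together with CCAAT in 35 (72.9%, against 8.61% and 6.90%). Neither CHR form was in the windows of Birc5, Ccnb1, Cenpe, G2e3, Gtse1, Nek2, Nuf2, Nusap1 and Tacc3. These are matches of letters, and no binding was measured. The 120 bases before the start are printed for the proliferation marker Mki67, for Top2a, the highest of the 56 per exon length in resting cells, for Cdk1, Cdc20 and Ccnb2, and for Anp32e and Psrc1, whose levels departed most from the rest. Capitals mark the letters of either CHR form or of a CCAAT box, or their reverse complements. The stretches lie at chr7:135716380-135716499 (minus strand) for Mki67, chr11:99024190-99024309 (minus) for Top2a, chr10:69352913-69353032 (minus) for Cdk1, chr4:118437344-118437463 (minus) for Cdc20, chr9:70421555-70421674 (minus) for Ccnb2, chr3:95929137-95929256 (plus) for Anp32e and chr3:108383684-108383803 (plus) for Psrc1.
Mki67: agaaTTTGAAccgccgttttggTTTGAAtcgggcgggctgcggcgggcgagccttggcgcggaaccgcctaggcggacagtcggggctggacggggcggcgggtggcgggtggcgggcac
Top2a: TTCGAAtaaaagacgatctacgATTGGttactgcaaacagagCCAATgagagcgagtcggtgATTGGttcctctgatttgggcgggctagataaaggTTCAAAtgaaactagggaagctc
Cdk1: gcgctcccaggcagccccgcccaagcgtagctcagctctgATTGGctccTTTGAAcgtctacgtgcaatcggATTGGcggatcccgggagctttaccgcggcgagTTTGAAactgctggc
Cdc20: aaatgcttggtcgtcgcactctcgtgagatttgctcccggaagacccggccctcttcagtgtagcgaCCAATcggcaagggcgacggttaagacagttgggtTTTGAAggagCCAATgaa
Ccnb2: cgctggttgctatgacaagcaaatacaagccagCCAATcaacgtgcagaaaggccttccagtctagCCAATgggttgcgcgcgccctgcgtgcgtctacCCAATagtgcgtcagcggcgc
Anp32e: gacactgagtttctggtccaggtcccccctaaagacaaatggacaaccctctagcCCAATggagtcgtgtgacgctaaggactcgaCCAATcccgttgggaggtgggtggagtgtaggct
Psrc1: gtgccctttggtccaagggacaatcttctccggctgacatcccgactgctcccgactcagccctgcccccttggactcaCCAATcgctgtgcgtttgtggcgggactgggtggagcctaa
Top2a shows both CHR forms and 3 CCAAT boxes, and Cdk1 2 of each, whereas the stretches of Ccnb2, Anp32e and Psrc1 show CCAAT boxes alone, with their CHR letters outside the stretch printed. Outside these stretches, TTTGAA began at −167 and 5 in Ccnb2 and at −195 in Anp32e. Psrc1 had only TTCGAA, at 5 in the window shown and at −30 in another. Whether such sites bear on the levels of these genes was not tested. Matches are counted per window, and 4 genes have several windows, so that a site in overlapping windows counts more than once in the totals and medians that follow. CCAAT sat at a median of 71 bases before the start, and 64 of its 102 matches were within 100 bases before it. TTTGAA sat at a median of 16 bases before the start, with 15 of its 50 matches in that stretch.

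**Figure D1:**
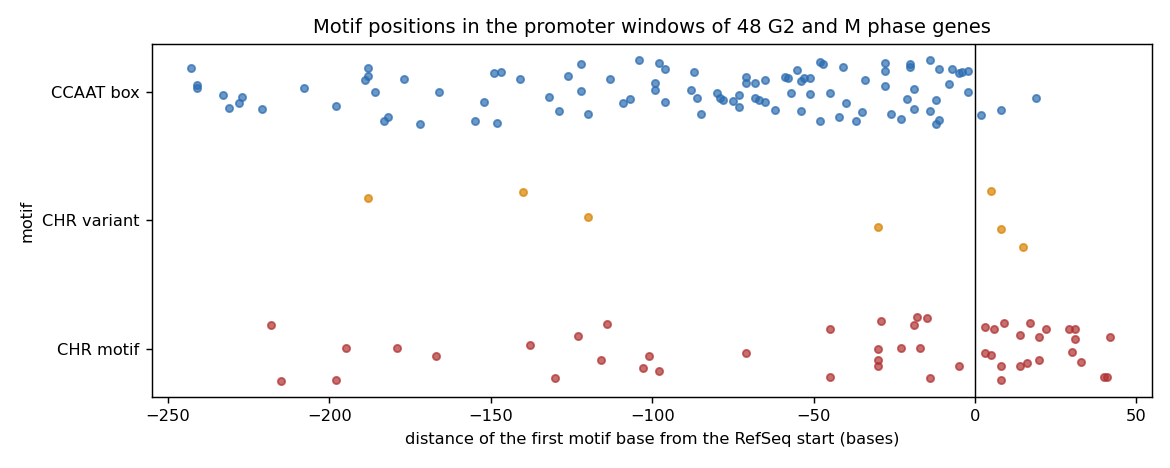
Positions of CHR, CHR variant and CCAAT matches in the RefSeq promoter windows of 48 G2 and M phase genes. Each point is 1 match in 1 of 52 windows, the horizontal axis gives the distance of its first base from the annotated start in bases, and the vertical spread within a row has no meaning. CCAAT matches lay mostly before the start, at a median of −71, and CHR matches lay on both sides of it, at a median of −16.

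Total counts ran from 9089350 to 16481840 per library, and the 56 genes had between 37 counts (Cdc25c, the scarcest) and 19608 counts (Top2a) in a library. Tmed10 itself stood at 63.3 ± 2.49 CPM in the resting KO against 117 ± 0.357 in controls, and at 57.1 ± 1.72 against 127 ± 2.02 CPM when activated (mean ± SD, n = 2), where CPM is the read count scaled to library size with TMM factors. With AGN192403 it stood at 135 ± 2.86 and 140 ± 6.70 CPM. All 10 CD8 T cell markers were detected, among them Cd8a at 632 to 780 CPM, and most markers of other cells were at or near 0. Cd4 was at most 1.29 CPM, Ncr1 0.200, Lyz2 0.211 and Csf1r 0.124 CPM, while Ms4a1 and Hbb-bs had no count. The sums of the CD4 and NK lists came mostly from genes that CD8 T cells also express. These were Zbtb7b at 32.6 to 67.6 CPM (list sum 40.5 to 74.8) and Nkg7 at 593 to 761 CPM (list sum 593 to 762). Cd40lg of the CD4 list reached 8.97 CPM. The other sums were at most 20.4 CPM (myeloid, highest in Cd68), 8.08 (B cell, highest in Cd79b) and 0.599 (erythroid).

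The 56 genes were lower together after activation, with AGN192403, and in the activated Tmed10 KO. Their summed level was 10097 and 10045 CPM in resting control libraries, 7091 and 7122 CPM with AGN192403, and 9495 and 9536 CPM in the Tmed10 KO. After activation it was 5601 and 5570, 2860 and 2881, and 4258 and 4329 CPM in the same 3 groups. No groups overlapped, and the libraries of each group lay far closer to each other than to those of any other group. Against resting control cells, the group means were 70.6% with AGN192403 and 94.5% in the KO at rest. They were 55.5%, 28.5% and 42.6% in activated control, AGN192403-treated and KO cells. Compared with activated control cells, the activated AGN192403 and KO cells held 51.4% and 76.9%. In bulk RNA, fewer cells in G2 and M phase and less of these transcripts per cell cannot be told apart. CPM is also a share of each library, so more of other RNA per cell would lower it too, and RNA per cell was not measured. All libraries are from the single 24 h time point.

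**Figure D2:**
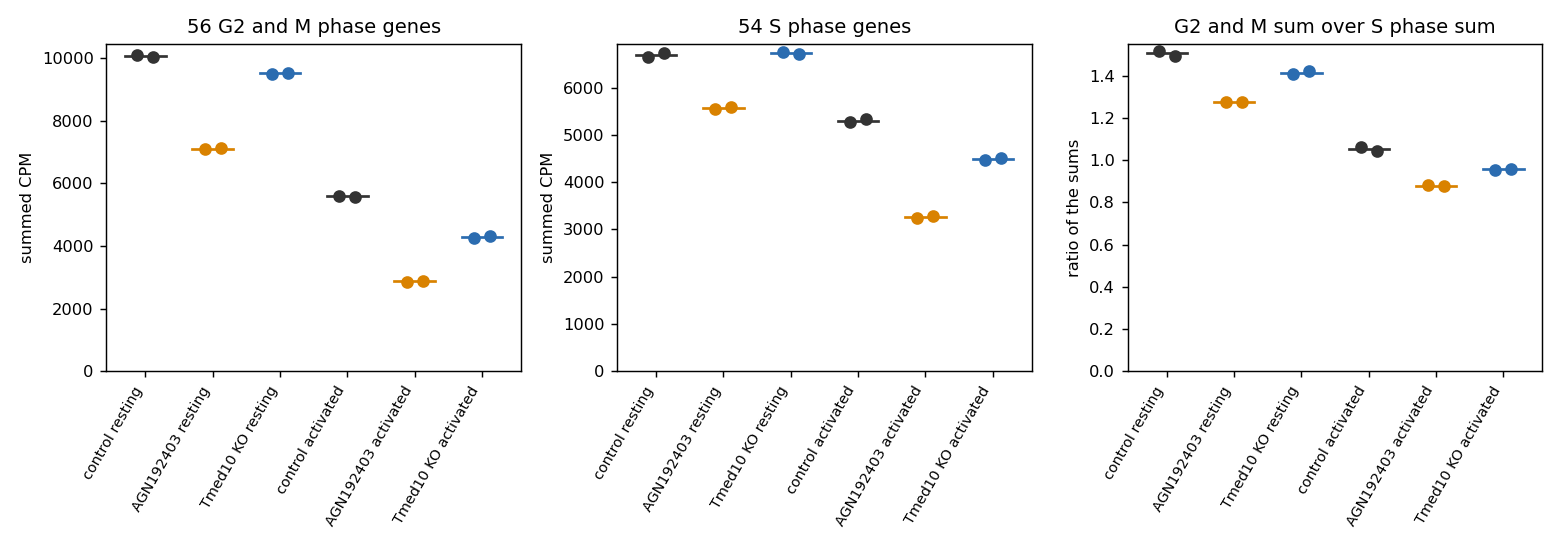
Summed level of the 56 G2 and M phase genes (left, CPM), of 54 S phase and DNA replication genes (middle, CPM) and the ratio of the sums (right) in 6 groups. Points are libraries and lines are means of 2. The mean G2 and M sum is 10071 CPM in resting control cells and 2871 CPM in activated AGN192403-treated cells, and the ratio 1.51 and 0.880.

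The genes kept a common order across the groups. The lowest of the 6 group means was that of activated AGN192403-treated cells for 54 of the 56 genes, all but Anp32e and Psrc1. Among activated cells the means ran AGN192403, then Tmed10 KO, then control in rising order for 55 genes, the exception being Psrc1. At rest the AGN192403 mean was below both others for 55, Psrc1 again excepted. Resting control cells had the highest mean for 45 genes and resting KO cells for 9, and most genes were not called different between these neighbours. For 55 genes each activated library was below each resting library of its own condition in all 3 conditions, the exception being Anp32e. Taken condition by condition, the count was also 55 in control, AGN192403 and KO cells. Of all genes, 43.7%, 42.7% and 42.4% had activated libraries below the resting ones in these conditions. The resting AGN192403 mean was below that of activated control cells for Ccnb1, Cdk1, Aurka, Cdc20, Hmmr, Gtse1, Tubb4b and Anp32e. Over the 6 group means of log2 CPM, 50 genes had a Pearson correlation of at least 0.95 with the mean of the other members (median 0.993). Lower values were found for Anp32e (−0.36), Psrc1 (0.63), Tubb4b (0.89), Lbr (0.91), Aurka (0.94) and Ccnb1 (0.94). These correlations describe 6 points that share libraries and carry no test. The shares of all genes with these orders of means, or with correlations this high, were not counted.

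**Figure D3:**
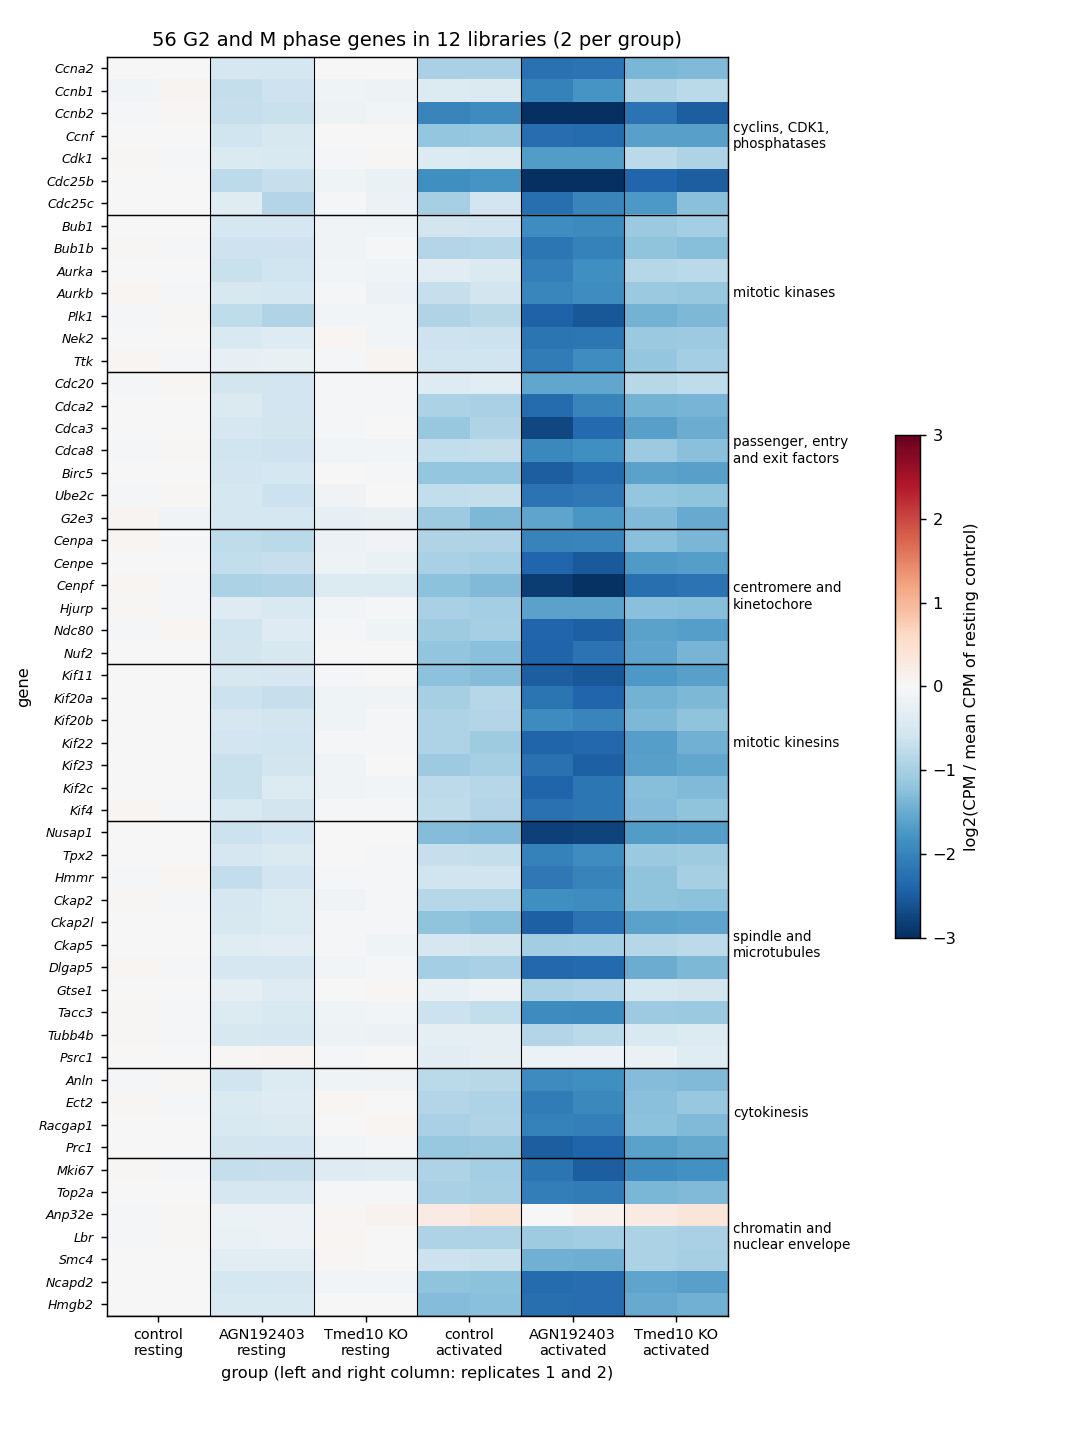
Levels of the 56 G2 and M phase genes (rows, grouped by role) in 12 libraries (columns, 2 per group), as log2 of CPM over the mean CPM of the 2 resting control libraries. Blue is lower and red is higher than resting control cells. Activated AGN192403-treated libraries are the darkest columns, and Anp32e is the only row with red cells after activation.

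Activation of control cells lowered 55 of the 56 genes and raised 1, all past the threshold of edgeR's quasi-likelihood test with Benjamini-Hochberg adjustment at 0.05 over all genes. Calls were common here, since 73.8% of all 13167 genes were called, 37.4% lower and 36.4% higher. The median log2 fold change of the 56 was −0.90, against −0.018 over all genes, and 16 genes fell at least 2-fold. The largest falls were in Ccnb2 (−1.93 ± 0.0641 SE) and Cdc25b (−1.81 ± 0.0549), which start mitosis, then in the spindle gene Nusap1 (−1.32 ± 0.0477) and in Cenpf (−1.27 ± 0.05005). The histone chaperone gene Anp32e rose by 0.31 ± 0.0513, and Gtse1 (−0.19 ± 0.0499), Tubb4b (−0.28 ± 0.0416) and Psrc1 (−0.30 ± 0.0536) fell least. Activation of AGN192403-treated cells and of KO cells also lowered 55 genes and raised Anp32e, with medians of −1.59 (36.1% of all genes were called lower, 33.9% higher and 70.0% either way) and −1.22 (36.5%, 37.2% and 73.7%), and with 49 and 43 genes at least 2-fold lower.

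AGN192403 lowered nearly the whole set in both states. At rest 55 of 56 genes were called lower and none higher, when 13.7% of all genes were called lower and 25.4% in either direction. The median was −0.52 against −0.0063 over all genes. No gene fell 2-fold, and the largest falls were in Cenpf (−0.92 ± 0.0486), Plk1 (−0.84 ± 0.0564), Cenpa (−0.78 ± 0.0528) and Cdc25b (−0.73 ± 0.0491). In activated cells 55 were again called lower and none higher, when 18.3% of all genes were called lower, 16.4% higher and 34.7% in either direction, with a median of −1.22 against −0.0097. In this comparison 45 genes fell at least 2-fold, led by Cenpf (−1.64 ± 0.0675), Plk1 (−1.62 ± 0.0762), Aurka (−1.55 ± 0.0789) and Nek2 (−1.55 ± 0.0878). Psrc1 was not called in either state, with 0.053 ± 0.0520 at rest and 0.14 ± 0.0541 in activated cells (adjusted p = 0.0558, edgeR). In activated cells Psrc1 was called higher under 9 of 19 alternatives. Among them were the replicate block and each fit that left out 1 resting AGN192403 library or 1 KO library. Its log2 fold change ran from 0.11 to 0.18 over all 19. Of the calls, that of Lbr in activated cells was lost in 8 of 19 alternatives, over which it ran from −0.15 to −0.093. It was lost with activated control library 2, activated AGN192403 library 1, or any 1 resting AGN192403 or resting KO library left out. It was also lost in 2 other settings. At rest the call of Ttk was lost in 8 of 19 alternatives, over which it ran from −0.28 to −0.17. It was lost with any 1 resting control or resting AGN192403 library or activated control library 1 left out, and in 3 other settings. That of Anp32e was lost without resting control library 2 or either resting AGN192403 library (adjusted p up to 0.184).

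The Tmed10 KO lowered the set in activated cells and left most of it without a call at rest. In activated cells 52 of 56 genes were called lower and none higher, when 8.78% of all genes were called lower, 10.8% higher and 19.6% in either direction. The median was −0.44 against 0.017 over all genes, no gene fell 2-fold, and the largest falls were in Cenpf (−0.97 ± 0.0615), Mki67 (−0.88 ± 0.0582), Cdc25c (−0.76 ± 0.185) and Cenpe (−0.70 ± 0.0529). The call of the scarce Cdc25c was lost without activated control library 2 or activated KO library 1, with adjusted p up to 0.195. Anp32e (−0.0071 ± 0.0505), Lbr (−0.029 ± 0.0413), Psrc1 (0.038 ± 0.0544) and G2e3 (−0.18 ± 0.0908) were not called, although G2e3 was called lower without activated control library 2 (adjusted p = 0.03004). At rest 6 of 56 were called lower and none higher, when 4.63% of all genes were called lower and 7.44% in either direction, with a median of −0.061 against 0.0027. These were Cenpf (−0.40 ± 0.0463), Mki67 (−0.39 ± 0.0547), G2e3 (−0.22 ± 0.0691), Cenpe (−0.17 ± 0.0432), Tubb4b (−0.16 ± 0.0413) and Cdc25b (−0.15 ± 0.0464). Only Cenpf and Mki67 kept their calls under every alternative. The count was 2 with DESeq2 and also without resting control library 1, without either resting KO library, or without any of 5 libraries outside the comparison (both resting AGN192403 libraries, activated control library 2 and both activated KO libraries).

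Whether the perturbations changed the response to activation was tested directly, as the difference between 2 log2 activation responses. The response was more negative in the KO than in control cells for 45 of 56 genes and more positive for none, when 1.89% of all genes were called lower in this test and 4.96% in either direction. The median difference was −0.37 against 0.015 over all genes. For AGN192403, 49 of 56 genes had a more negative response and none a more positive one, when 11.1% of all genes were called lower and 19.7% in either direction, with a median difference of −0.69 against −0.015. Among called genes, Nek2 (−1.13 ± 0.111), Ttk (−1.13 ± 0.138), Cdca3 (−0.95 ± 0.119) and Aurka (−0.92 ± 0.104) differed most with AGN192403, and Cenpf (−0.57 ± 0.0773), Cdca3 (−0.54 ± 0.105), Cenpe (−0.53 ± 0.0684) and Kif22 (−0.53 ± 0.0912) in the KO. The scarce Cdc25c had a difference of −0.68 ± 0.231 in the KO that was not called (adjusted p = 0.102, edgeR). Both differences use the same control libraries and are set side by side without a comparison of the 2 lists. The KO and AGN192403 cells were also compared with each other. The KO level was called higher for 53 of 56 genes in activated cells (13.0% of all genes were called higher, 20.3% in either direction) and for 55 at rest (8.83% and 16.6%), with medians of 0.78 and 0.47. Nusap1 (1.12 ± 0.0674), Aurka (1.10 ± 0.0831), Plk1 (1.09 ± 0.0809) and Nek2 (1.08 ± 0.0929) differed most in activated cells.

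**Figure D4:**
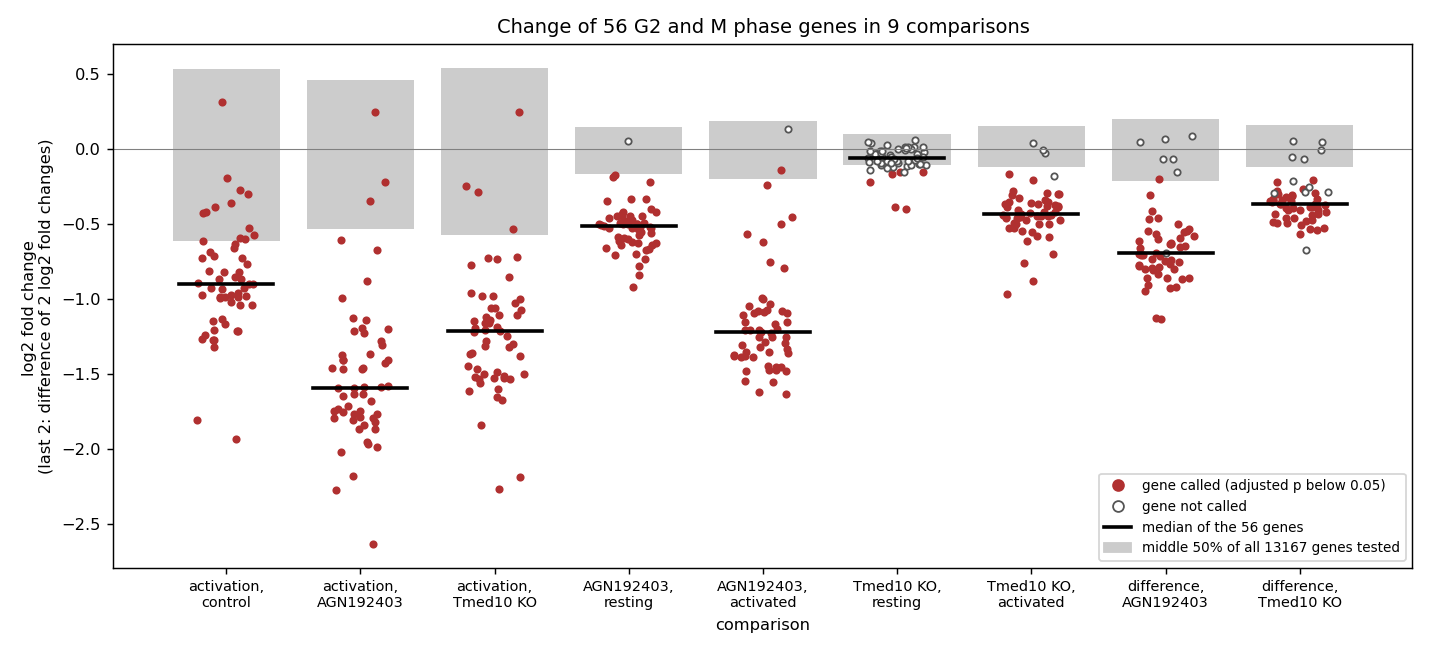
Log2 fold changes of the 56 G2 and M phase genes in 7 comparisons, and differences between 2 log2 activation responses in the last 2 columns. Filled points are genes called by edgeR at an adjusted p below 0.05, open points are not called, black lines are medians of the 56 and grey boxes span the middle 50% of all 13167 genes. The medians run from −0.90 to −1.59 for activation, are −0.52 and −1.22 for AGN192403, and are −0.06 and −0.44 for the Tmed10 KO.

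The cyclins, CDK1 and its activating phosphatases start mitosis. Ccnb1 and Ccnb2 encode the B-type cyclins that activate CDK1 (ENSMUSG00000041431, chromosome 13, 100778650 to 100786570, and ENSMUSG00000032218, chromosome 9, 70407692 to 70421547, positions on GRCm38). Ccnb1 stood at 56.05 and 62.6 CPM in resting control cells, 36.4 and 38.6 with AGN192403 and 54.1 and 52.9 in the Tmed10 KO, and at 44.7 and 43.9, 14.6 and 17.5, and 31.7 and 33.7 CPM in the same 3 groups after activation. At rest Ccnb2 measured 112 and 118 CPM in control, 71.4 and 72.3 in AGN192403-treated and 104 and 108 in Tmed10 KO libraries, and after activation 29.2 and 31.1, 11.7 and 11.5, and 24.9 and 20.7 CPM in that order. The groups of Ccnb1 did not overlap, and it changed by −0.43 on activation of control cells where Ccnb2 changed by −1.93, whereas in activated cells AGN192403 lowered both (−1.45 ± 0.0871 and −1.38 ± 0.0982). The libraries held Cdk1 at 123 and 118 (control), 89.1 and 88.03 (AGN192403) and 118 and 123 CPM (Tmed10 KO) at rest and at 90.1 and 89.8, 37.6 and 38.00, and 68.6 and 63.9 CPM when activated. Cdk1 (ENSMUSG00000019942, chromosome 10, 69335146 to 69352938), the kinase itself, overlapped between resting control and KO libraries and was separate elsewhere, with −0.43 ± 0.0519 in the activated KO and −1.25 ± 0.0575 in activated AGN192403 cells. Cdc25b stood at 156 and 159 CPM in resting control cells, 90.99 and 97.8 with AGN192403 and 145 and 138 in the Tmed10 KO, and at 43.7 and 46.5, 19.5 and 19.6, and 30.2 and 28.2 CPM in the same 3 groups after activation. Cdc25b, whose product removes the inhibitory phosphates of CDK1, thus had a low share of its resting control level left in activated control cells, at 28.6%. Ccna2, the S and G2 phase cyclin, and Ccnf, an F-box cyclin, changed by −0.97 and −1.15 on activation and by −1.25 and −1.15 with AGN192403 in activated cells. All 7 genes of this role were called lower with AGN192403 in both states and in the activated KO, with medians of −0.64, −1.25 and −0.45. Of all genes, 13.7%, 18.3% and 8.78% were called lower in these comparisons. The resting AGN192403 call of Cdc25c (−0.64) was lost without resting AGN192403 library 2. Over 19 alternatives that change ran from −0.89 to −0.36.

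The mitotic kinases drive spindle assembly and the checkpoint. At rest Plk1 measured 102 and 108 CPM in control, 61.5 and 56.4 in AGN192403-treated and 99.4 and 98.8 in Tmed10 KO libraries, and after activation 55.8 and 59.2, 19.6 and 17.9, and 39.2 and 40.9 CPM in that order. Plk1 (ENSMUSG00000030867, chromosome 7, 122159439 to 122169873), the polo-like kinase gene, separated every group but the resting AGN192403 and activated control libraries, which overlapped, and activated AGN192403 cells held 32.5% of the activated control level. The libraries held Aurkb at 123 and 115 (control), 85.7 and 83.1 (AGN192403) and 115 and 106 CPM (Tmed10 KO) at rest and at 73.6 and 81.4, 30.6 and 32.7, and 55.1 and 54.02 CPM when activated. Aurkb (ENSMUSG00000020897, chromosome 11, 69045647 to 69051664), the kinase of the chromosomal passenger complex, was lowest with AGN192403 in both states and changed by −0.50 ± 0.0628 in the activated KO. Aurka stood at 64.5 and 64.8 CPM in resting control cells, 40.6 and 42.8 with AGN192403 and 60.6 and 58.8 in the Tmed10 KO, and at 51.5 and 47.6, 15.6 and 17.9, and 35.7 and 36.9 CPM in the same 3 groups after activation. Aurka, the centrosomal Aurora kinase gene, changed little on activation of control cells (−0.38 ± 0.0615) and much on activation with AGN192403 (−1.31 ± 0.0818), a difference of −0.92 ± 0.104 (adjusted p = 5.36e-07, edgeR). Bub1, Bub1b and Ttk encode checkpoint kinases and Nek2 a centrosome kinase. In activated cells AGN192403 changed them by −1.32, −1.22, −1.36 and −1.55, and the KO by −0.50, −0.36, −0.50 and −0.46. All 7 kinase genes were called lower in both of these comparisons, when 18.3% and 8.78% of all genes were. Their median with AGN192403 was −1.36.

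**Figure D5:**
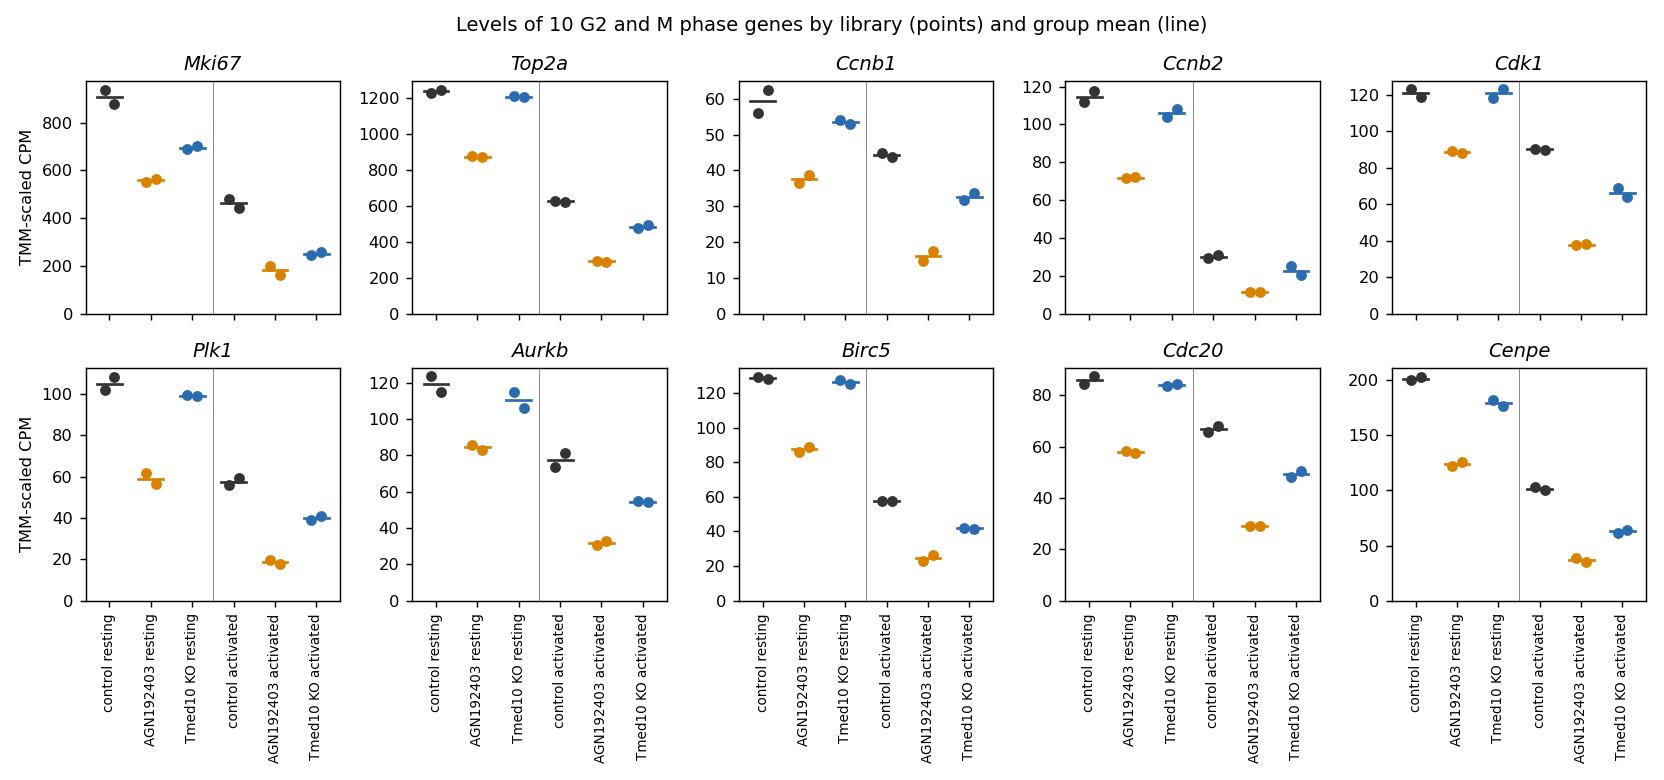
TMM-scaled CPM of 10 G2 and M phase genes in 6 groups, with points for libraries, lines for group means of 2, and a vertical line between resting and activated groups. Each panel has its own axis from 0. AGN192403 (orange) is the lowest group of each state in every panel, and in the resting Tmed10 KO (blue) Mki67 lies below control (black) at 76.6% of it.

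The passenger subunits and the factors of mitotic entry and exit followed the same course. At rest Birc5 measured 129 and 128 CPM in control, 85.9 and 88.8 in AGN192403-treated and 127 and 125 in Tmed10 KO libraries, and after activation 57.4 and 57.3, 23.1 and 26.2, and 42.05 and 41.4 CPM in that order. Birc5 (ENSMUSG00000017716, chromosome 11, 117849251 to 117855743) encodes survivin, a subunit of the chromosomal passenger complex, and its resting KO libraries lay just below the controls (−0.023 ± 0.0457, not called). The libraries held Cdc20 at 84.3 and 87.8 (control), 58.4 and 57.5 (AGN192403) and 83.7 and 84.4 CPM (Tmed10 KO) at rest and at 65.8 and 68.1, 29.1 and 29.03, and 48.2 and 50.5 CPM when activated. Cdc20 (ENSMUSG00000006398, chromosome 4, 118432901 to 118437352), the activator of the anaphase-promoting complex, had activated control libraries above the resting AGN192403 ones. It changed by −0.36 ± 0.0514 on activation and by −1.20 ± 0.0617 with AGN192403 in activated cells. Cdca8, another passenger subunit, and Ube2c, the ubiquitin-conjugating enzyme of the anaphase-promoting complex, changed by −1.17 and −1.45 with AGN192403 and by −0.43 and −0.45 in the KO, both in activated cells. G2e3, a ubiquitin ligase gene, was an exception in its response. G2e3 stood at 91.9 and 80.6 CPM in resting control cells, 60.03 and 59.6 with AGN192403 and 73.02 and 74.1 in the Tmed10 KO, and at 40.7 and 33.7, 28.9 and 25.7, and 34.6 and 30.1 CPM in the same 3 groups after activation. Its activation change was −1.20 ± 0.0780 in control, −1.14 ± 0.0876 in AGN192403 and −1.16 ± 0.0802 in KO cells, and neither difference was called (0.065 ± 0.120 and 0.044 ± 0.114).

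Of the 6 centromere and kinetochore genes, Cenpf and Cenpe had the largest changes in activated cells with AGN192403 and in the KO. Cenpf stood at 202 and 189 CPM in resting control cells, 101 and 105 with AGN192403 and 148 and 148 in the Tmed10 KO, and at 83.8 and 77.6, 27.1 and 25.1, and 40.6 and 42.1 CPM in the same 3 groups after activation. Cenpf (ENSMUSG00000026605, chromosome 1, 189640606 to 189688086) encodes a large kinetochore and spindle matrix protein, and its resting KO libraries lay below the controls without overlap (−0.40 ± 0.0463, adjusted p = 2.57e-06, edgeR). Activated AGN192403 cells held 32.2% and activated KO cells 51.1% of the activated control level of Cenpf. At rest Cenpe measured 200.4 and 203 CPM in control, 122 and 125 in AGN192403-treated and 182 and 177 in Tmed10 KO libraries, and after activation 103 and 100.0, 38.8 and 34.9, and 61.7 and 63.9 CPM in that order. Cenpe, a kinetochore motor, also lay lower in the resting KO (−0.17 ± 0.0432, and −0.17 to −0.11 over the alternatives). That call was lost with DESeq2 and with any 1 resting library, activated control library 2 or either activated KO library left out. Cenpa, the centromeric histone H3, and Hjurp, its loading chaperone, changed less than Cenpf and Cenpe with AGN192403 in activated cells, by −1.09 ± 0.0659 and −0.62 ± 0.0455. Ndc80 and Nuf2, which form the microtubule-binding arm of the kinetochore, changed by −1.39 and −1.08 there and by −0.59 and −0.30 in the activated KO, where the call of Nuf2 was lost with DESeq2 and without activated control library 1 or KO library 1, with adjusted p up to 0.284.

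All 7 mitotic kinesin genes were called lower with AGN192403 in both states and in the activated KO, with medians of −0.53, −1.37 and −0.46. Of all genes, 13.7%, 18.3% and 8.78% were called lower there. No kinesin gene was called in the resting KO, where 7.44% of all genes were. The libraries held Kif11 at 289.6 and 293 (control), 209 and 204 (AGN192403) and 279 and 291 CPM (Tmed10 KO) at rest and at 124 and 118, 52.3 and 49.8, and 87.8 and 94.1 CPM when activated. Kif11 encodes the motor that pushes the spindle poles apart, and it had the largest change on activation of control cells among the kinesins (−1.27 ± 0.0453). Kif20a stood at 157 and 159.7 CPM in resting control cells, 102 and 97.97 with AGN192403 and 146 and 148 in the Tmed10 KO, and at 78.6 and 87.5, 34.4 and 30.2, and 59.2 and 62.1 CPM in the same 3 groups after activation. Kif20a works in the central spindle, as do Kif23, which forms centralspindlin, and Kif4. These changed by −0.46, −0.55 and −0.44 in the activated KO and by −1.37, −1.31 and −1.38 in activated AGN192403 cells. Kif2c, the microtubule depolymerase at centromeres, changed by −1.45 in the latter, Kif22, a chromosome-arm motor, by −1.39 and Kif20b by −1.03.

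The 11 spindle and microtubule genes were uneven, with log2 changes from −1.48 (Nusap1 and Hmmr) to 0.14 (Psrc1) with AGN192403 in activated cells. At rest Nusap1 measured 155 and 157 CPM in control, 99.02 and 104 in AGN192403-treated and 155 and 156 in Tmed10 KO libraries, and after activation 63.3 and 61.8, 22.4 and 22.6, and 48.5 and 49.3 CPM in that order. Nusap1, a microtubule bundling protein, had the largest changes of this role on activation (−1.32 ± 0.0477) and shared the largest with AGN192403 in activated cells (−1.48 ± 0.0649) with Hmmr (−1.48 ± 0.0774), a spindle and hyaluronan-binding protein. Tpx2, the activator of Aurora A, Dlgap5 and Tacc3, both spindle fibre stabilizers, changed there by −1.22, −1.36 and −1.21, and in the activated KO by −0.38, −0.44 and −0.42. Others changed less. The libraries held Tubb4b at 252 and 244 (control), 177 and 174 (AGN192403) and 224 and 221 CPM (Tmed10 KO) at rest and at 207 and 203, 135 and 141, and 179.6 and 186 CPM when activated. Tubb4b, a beta-tubulin used through the whole cycle, kept 82.6% of its resting level in activated control cells. Its activation change was not called different in AGN192403 or KO cells (−0.071 ± 0.0608 and −0.0093 ± 0.0592). In the activated KO the call of Tubb4b (−0.17, and −0.19 to −0.13 over the alternatives) was lost in 3 settings. These were no expression filter, and activated control library 1 or activated KO library 1 left out. Ckap5, a microtubule polymerase gene, and Gtse1 changed by −0.50 and −0.75 with AGN192403 in activated cells. Psrc1 stood at 101 and 102 CPM in resting control cells, 103 and 107 with AGN192403 and 98.6 and 103 in the Tmed10 KO, and at 80.98 and 83.4, 90.4 and 90.1, and 88.4 and 78.9 CPM in the same 3 groups after activation. Psrc1, a spindle protein gene also known as a p53 target, had AGN192403 libraries above the controls in both states, and it was called only on activation (control −0.30 ± 0.0536, AGN192403 −0.22 ± 0.0525, KO −0.25 ± 0.0528).

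The 4 cytokinesis genes were all called lower in the activated KO and with AGN192403 in activated and resting cells. Of all genes, 8.78%, 18.3% and 13.7% were called lower there. Prc1 stood at 163 and 161 CPM in resting control cells, 110.3 and 109.6 with AGN192403 and 153 and 156 in the Tmed10 KO, and at 73.6 and 74.5, 29.4 and 30.9, and 53.3 and 56.1 CPM in the same 3 groups after activation. Prc1 bundles microtubules of the midzone, and its groups did not overlap. At rest Racgap1 measured 184 and 183 CPM in control, 134 and 135 in AGN192403-treated and 186 and 191 in Tmed10 KO libraries, and after activation 93.7 and 98.4, 45.2 and 44.7, and 78.5 and 73.8 CPM in that order. Racgap1 is the other centralspindlin subunit, Ect2 the exchange factor it recruits and Anln the scaffold of the contractile ring. In activated cells AGN192403 changed Racgap1 by −1.10 ± 0.0549, Ect2 by −1.09 ± 0.0759 and Anln by −1.04 ± 0.0881, and the KO by −0.33 ± 0.0502, −0.30 ± 0.0675 and −0.50 ± 0.0806. The KO call of Ect2 was lost without activated KO library 1 (adjusted p = 0.0688).

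Among the 7 genes for chromatin, condensation and the nuclear envelope, Mki67 and Top2a fell with the set while Lbr and Anp32e did not follow it throughout. The libraries held Mki67 at 935 and 879 (control), 553 and 564 (AGN192403) and 689 and 700.4 CPM (Tmed10 KO) at rest and at 479 and 444, 198 and 163, and 246 and 257 CPM when activated. Mki67 (ENSMUSG00000031004, chromosome 7, 135689784 to 135716361) encodes Ki-67, the coat of mitotic chromosomes used as a proliferation marker. Its resting KO libraries were below the controls (−0.39 ± 0.0547, adjusted p = 4.31e-05, edgeR), and its activated KO libraries (−0.88 ± 0.0582) lay above the AGN192403 ones (−1.36 ± 0.0598). Top2a stood at 1230 and 1247 CPM in resting control cells, 877 and 870.4 with AGN192403 and 1210 and 1208 in the Tmed10 KO, and at 629 and 622, 292 and 289, and 479 and 491 CPM in the same 3 groups after activation. Top2a (ENSMUSG00000020914, chromosome 11, 98992943 to 99024189), the topoisomerase that untangles sister chromatids, did not share the resting difference of Mki67 and was at −0.035 ± 0.0346 there, against −0.37 ± 0.0358 when activated. Per length, Top2a was the highest of the 56 in each resting group, with 137 CPM per kb of exon in control cells. In activated AGN192403 cells it had 32.3 CPM per kb, below Anp32e (72.1), Tubb4b (66.1) and Lbr (43.4), and in activated control cells 69.4, below Tubb4b (98.1) and Anp32e (85.5). Cdc25c had 3.39 CPM per kb in resting control and 0.781 in activated AGN192403 cells. Smc4 and Ncapd2, condensin subunits, changed by −0.80 and −1.08 with AGN192403 in activated cells, and Hmgb2, a chromatin protein of dividing cells, by −0.997. The KO call of Hmgb2 in activated cells (−0.21 ± 0.0505) was lost without KO library 1 (adjusted p = 0.0928).

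The latter genes followed the set in part. At rest Lbr measured 422 and 441 CPM in control, 375 and 383 in AGN192403-treated and 446 and 434 in Tmed10 KO libraries, and after activation 227 and 228, 205 and 208, and 225 and 221 CPM in that order. Lbr, the lamin B receptor of the inner nuclear membrane, was lower on activation of control cells by a size near the median of the set (−0.93 ± 0.0401) and by a like size in AGN192403 and KO cells (−0.88 ± 0.0405 and −0.98 ± 0.04002). Its AGN192403 changes were small (−0.19 ± 0.0389 at rest and −0.14 ± 0.0415 in activated cells), and its KO changes were not called. The libraries held Anp32e at 238 and 253 (control), 218 and 217 (AGN192403) and 250.3 and 263 CPM (Tmed10 KO) at rest and at 292 and 318, 245 and 269, and 293 and 314 CPM when activated. Anp32e (ENSMUSG00000015749, chromosome 3, 95929246 to 95947390), a chaperone that removes the histone variant H2A.Z, was higher in activated than in resting libraries of each condition, by 0.31 ± 0.0513, 0.24 ± 0.0523 and 0.24 ± 0.0510 in control, AGN192403 and KO cells. With AGN192403 it was lower in both states (−0.18 ± 0.0526 and −0.24 ± 0.0510), and the KO libraries overlapped the controls.

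Other genes of the cycle were counted from lists of the same processes. For the lists that follow, the shares of all genes called lower were 18.3% and 13.7% with AGN192403 in activated and resting cells, 8.78% and 4.63% in the KO, and 37.4% on activation of control cells. In activated cells 16.4% of all genes were called higher with AGN192403 and 10.8% in the KO. Activation of control cells raised 36.4%. At rest 1533 of the 13167 genes were called higher with AGN192403 and 370 in the KO. Most of the 54 S phase and DNA replication genes were lower too, with medians closer to 0. AGN192403 lowered 52 of them in activated cells (median −0.71) and 40 at rest (−0.23) and raised none, and activation of control cells lowered 38 and raised 4 (−0.32). The KO lowered 35 and raised none in activated cells (−0.24), while at rest 1 rose (Rpa1, 0.17) and none fell. Their summed level was 6689 ± 56.1 CPM in resting control cells, 5572 ± 22.2 with AGN192403 and 6729 ± 22.6 in the KO, and 5301 ± 48.5, 3262 ± 35.8 and 4488 ± 27.5 CPM after activation (n = 2). The ratio of the G2 and M sum to this S phase sum was 1.51 ± 0.0181, 1.28 ± 0.00104 and 1.41 ± 0.00912 at rest and 1.05 ± 0.0137, 0.880 ± 0.00502 and 0.957 ± 0.00523 after activation. The ratio thus stood lower in each activated group than in its resting counterpart, and lowest with AGN192403 in each state.

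Mitotic genes outside the 56 fell less uniformly. In activated cells AGN192403 lowered 25 of 28 other kinesin, spindle and cytokinesis genes (median −1.06) and 24 of 27 other kinetochore and centromere genes (−0.86), and raised none of either. The KO lowered 19 and 8 of these. Aspm, a spindle pole gene, changed by −1.58 with AGN192403 and −0.98 in the KO, Kif14, a cytokinesis kinesin, by −1.68 and −0.65, and Knl1, a kinetochore scaffold, by −1.36 and −0.74. Other condensin and cohesin genes had 11 of 15 lower with AGN192403 and 9 in the KO, where the condensin genes Ncapg (−1.20 and −0.39) and Ncaph (−1.18 and −0.37) were among them. Spindle checkpoint and anaphase genes split more, with 18 lower and 2 higher of 29 (median −0.31) and, in the KO, 10 lower and 1 higher. Among these, Espl1, which encodes separase, the protease that cuts cohesin at anaphase, changed by −1.49 and −0.62. Other mitotic kinases and phosphatase regulators had 12 lower and 2 higher of 18. On activation of control cells, Nek6 of that list rose by 2.33.

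Among 20 genes that regulate late cell cycle transcription, AGN192403 lowered 14 in activated cells and 8 at rest and raised none, when 18.3% and 13.7% of all genes were called lower. The KO lowered 7 and raised 1 in activated cells, when 8.78% and 10.8% of all genes were called lower and higher. None was called in the resting KO, where 7.44% of all genes were. Foxm1 stood at 139 and 138 CPM in resting control cells, 104 and 99.2 with AGN192403 and 134 and 129 in the Tmed10 KO, and at 59.2 and 52.4, 26.3 and 30.7, and 43.2 and 41.1 CPM in the same 3 groups after activation. Foxm1, the transcription factor of many of the 56 genes, was separate between the 3 activated groups and changed by −1.31 on activation of control cells, by −0.96 with AGN192403 and by −0.40 in the KO. At rest Mybl2 measured 37.3 and 39.04 CPM in control, 29.3 and 28.03 in AGN192403-treated and 38.5 and 34.5 in Tmed10 KO libraries, and after activation 34.4 and 31.4, 16.4 and 17.8, and 25.2 and 27.3 CPM in that order. Mybl2, encoding B-MYB, changed by only −0.22 on activation of control cells and by −0.94 with AGN192403 in activated cells. E2f7, a repressor of E2F targets, changed by −1.68 and −1.04 in these comparisons.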

How the data were processed

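Polyadenylated RNA of 12 libraries had been sequenced with 65-base single reads. Reads were aligned to GRCm38 (mm10) with STAR 2.6.0c, and HTSeq gave the counts that the authors deposited, unnormalized, 1 row per gene. These names are the submitters' processing notes, and the study's methods name another STAR version. Symbols for 46005 of 46603 identifiers came from GENCODE on GRCm38, and the other 598 held 0.0709% of counts. Counts were fitted with edgeR 4.0.16 in R 4.3.3 (filterByExpr, TMM factors 0.976 to 1.02, 1 mean per group, quasi-likelihood, 6 residual degrees of freedom), with calls at 0.05 after Benjamini-Hochberg adjustment over 13167 genes. Errors are SE from the F statistic, levels are CPM scaled by TMM, and log2 CPM used a prior count of 2. DESeq2 1.42.0 was an alternative, and the fit was tested on simulated data. Motifs were matched as letters.

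The members, the other gene lists and the rule for named genes were chosen with earlier results of these data known. The rule gives library values for 10 markers, for the largest and smallest changes and for members of each role, and it adds up to 4 genes per list and the 6 genes most like the members.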

Additional observations from a re-analysis of the deposited data

Results flagged for a closer look

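Both tests of the activation response met the condition for a closer look, because the response itself differed between conditions by a test of the difference. In the Tmed10 KO, 45 of the 56 G2 and M phase genes had a more negative log2 response to activation than control cells, with a median difference of −0.37. With AGN192403, 49 of the 56 genes did, with a median difference of −0.69. Of all genes, 1.89% were called lower in the KO test (4.96% in either direction) and 11.1% in the AGN192403 test (19.7%). With DESeq2 the counts of the 56 were 33 and 47. The control libraries are the same in both tests.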

How the results depend on the processing

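All 12 libraries are in groups of 2, and every fit was repeated with DESeq2, with median-ratio size factors or plain library totals for TMM, with no filter or one of 5 CPM in 2 libraries, with a replicate block, on the compared libraries alone, and without each library in turn. With a library left out, the lone library of its group is assumed to vary as the others do. The number of members called moved past 1.5 times in 1 comparison, the resting Tmed10 KO, from 6 to 2 with DESeq2 and to 2 to 7 with 1 library left out. The leave-one-out ranges elsewhere were 47 to 52 (activated KO), 54 to 56 and 52 to 55 (AGN192403, activated and resting), 56 (each activation comparison), 51 to 53 and 53 to 55 (KO against AGN192403), and 32 to 49 and 47 to 50 (differences in response, KO and AGN192403). DESeq2 gave 51, 55, 54, 56, 52, 53, 33 and 47 in the same order. Calls kept under every alternative were 47 of 52 in the activated KO, 54 of 55 and 52 of 55 with AGN192403 in activated and resting cells, all 56 for each activation comparison, 50 of 53 and 53 of 55 for KO against AGN192403, and 29 of 45 and 47 of 49 for the differences in response. No call changed sign.

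The labels share replicate numbers. The correlations of replicate deviations over 15 pairs of groups ran from −0.00507 to 0.239, 3 above 0.1, and the numbers were not used as pairs. Those 3 (0.189, 0.239 and 0.213) form 1 linked set, since they join the activated AGN192403 group, the resting control group and the activated control group to each other. These groups also differed most between replicates relative to counting noise (chi-square per degree of freedom 3.96, 2.28 and 2.01, against 1.14 to 1.72 in the others). Where replicates differ little beyond counting noise, a shared deviation can hardly show, so the low correlations do not settle whether replicates were paired. With the replicate block the counts of members called were 52 and 7 (KO, activated and resting), 56 and 55 (AGN192403), 56 (activation), 54 and 55 (KO against AGN192403), and 46 and 50 (differences).

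Uncalled values turned sign under some alternative for 23 of the 56 genes in the resting KO, 3 in the activated KO (Anp32e, Lbr and Psrc1), 3 in the KO difference (Tubb4b, G2e3 and Psrc1) and 2 in the AGN192403 difference (Anp32e and G2e3). Of the 10 marker genes, 3 were among those of the resting KO. With 1 library left out, Top2a ran from −0.045 to 0.000314 (positive without resting KO replicate 2) and Birc5 from −0.028 to 0.021, and Cdk1 was 0.013 with median-ratio size factors, 0.017 with library totals and 0.014 with DESeq2, and −0.027 to 0.058 with 1 library left out.

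Counts over all genes moved more. DESeq2 called 1437 genes in the activated KO (2583 with edgeR), 386 in the resting KO (979), 3031 and 1946 with AGN192403 in activated and resting cells (4570 and 3341), 1510 and 1283 for KO against AGN192403 (2673 and 2186), and 314 and 1463 for the differences (653 and 2592). With 1 library left out, the activated KO gave 1538 (without activated control 1) and 1686 (activated KO 1), and the resting KO 349 (resting control 1), 317 and 471 (resting KO 1 and 2) and 1477 (activated AGN192403 1). Resting AGN192403 gave 1861 (without resting AGN192403 2). KO against AGN192403 gave 1774, 1583 and 1754 (without activated AGN192403 1, KO 1 or KO 2) in activated cells and 1215 and 1299 (without resting AGN192403 2 or KO 1) at rest. The KO difference gave 402, 318, 397 and 374 (without activated control 1, resting KO 1, resting KO 2 or activated KO 1). The share of these reads that comes from cells in G2 and M phase was not measured, and 2 libraries per group limit every error.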

Other observations

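Genes of the G1 phase were called in both directions. Of 20 G1 cyclin and CDK inhibitor genes, 19 were tested, and AGN192403 raised 5 and lowered 5 of them in activated cells (median −0.065), while the KO raised 3 and lowered 2 (0.026). In the same comparisons, AGN192403 raised 16.4% and lowered 18.3% of all genes, and the KO 10.8% and 8.78%. Activation of control cells raised 7 and lowered 10 of the 19, against 36.4% and 37.4% of all genes. Cdkn2b, which encodes the CDK4 and CDK6 inhibitor p15, was higher than in activated control cells by 0.98 with AGN192403 and 0.51 in the KO. Ccnd1, a D-type cyclin, was lower by the signed changes −2.04 and −0.90. It rose on activation in each condition, by 3.06 in control, 1.56 in AGN192403-treated and 2.27 in KO cells. Cdkn1b, which encodes the inhibitor p27, changed by −2.20 on activation of control cells.

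Among 9152 genes outside the 56 and the lists that reached 10.0 CPM in a group, the group means most like the mean of the 56 were those of Arhgap19 (Pearson's r 0.9997 over 6 group means), Dbf4 (0.9997), Ticrr (0.9995), Ube2t (0.9992), Gen1 (0.9992) and Eme1 (0.9991). Arhgap19 stood at 96.4 and 95.2 CPM in resting control cells, 61.1 and 60.9 with AGN192403 and 92.1 and 88.4 in the Tmed10 KO, and at 44.3 and 43.6, 15.95 and 17.7, and 30.9 and 30.1 CPM in the same 3 groups after activation. Arhgap19 thus ranked its groups as most of the 56 did, and its slope on the mean of the 56 was 1.25 on the log2 scale, against 0.550 for Dbf4, the activating subunit of the CDC7 kinase. These values describe 6 points that share libraries with the 56 genes and carry no test.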
